A study of Mus musculus with 21 samples.

Results

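The regions described here are the stretches of the mouse genome that carried a peak of all 6 subunits of the NuRD complex in embryonic basal ganglia and that lay at the end of a gene. They were chosen from the measured peak calls: peaks of the 6 deposited lists that shared at least 1 bp were merged, on chromosomes 1 to 19 and X, and a merged region was kept when it held a peak of every list and lay no more than 1000 bp from the start or the end of a protein-coding gene that has a curated RefSeq transcript. Of 38820 merged regions, 1527 held all 6 lists, and 624 of these lay at a gene end. The remaining 903 lay elsewhere, and 12454 gene-end regions held 1 to 5 lists. Membership in all 6 lists and the distance to a gene end were used to choose the regions, so the heights of their peaks are given as a description, with no test.

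ChIP-seq, the sequencing of DNA recovered with an antibody to a chromatin protein, was done on basal ganglia (ganglionic eminences) of CD1 mice at E13.5, with 1 library each for CHD4, HDAC1, HDAC2, MBD3, RBBP4 and RBBP7 and 3 input libraries. Chromatin was fixed with DSG and then PFA, which also holds proteins that reach DNA through other proteins. Chromatin accessibility (ATAC-seq) was measured on ganglionic eminences of CD1 embryos at E12.5, wild-type (WT) or with both Dlx1 and Dlx2 disrupted (Dlx1/2KO), in cells of the VZ, the ventricular zone (FTpos), and in cells of the SVZ/MZ (FTneg), and each deposited comparison combines 3 embryos of each genotype. How the Dlx1/2KO allele was made is not given in the sources used here, and the ChIP-seq has no mutant arm.

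The peak lists held between 5517 (HDAC2-labelled) and 29762 (RBBP4) peaks, with no replicate library for any subunit and no read counts, so the depth of each library is unknown and no error can be put on a peak's height. In 3 lists the name of the sample and the protein written in the peak names differed: the list of the sample labelled CHD4 carried peaks named HDAC1, that labelled HDAC1 carried peaks named HDAC2, and that labelled HDAC2 carried peaks named CHD4. The run prefix in the peak names is shared by the lists named HDAC1 and HDAC2, by those named CHD4 and MBD3 and by both RBBP lists, which is how the sample labels pair subunits with inputs. The sample labels and the peak names thus give different pairs of lists that share an input, and which name was right was not settled. The lists are called here by their sample label ("CHD4-labelled"), and no statement below should be read as being about CHD4, HDAC1 or HDAC2 rather than about the list so labelled. The set of 624 regions was the same under either naming, since it required every list. By the labels the CHD4-labelled and MBD3 lists shared an input, as did the HDAC1-labelled and HDAC2-labelled lists. By the peak names the pairs were CHD4-labelled with HDAC1-labelled and HDAC2-labelled with MBD3. RBBP4 and RBBP7 shared an input under either naming, and lists that share an input were not independent.

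NuRD joins a nucleosome remodelling ATPase (CHD4) with histone deacetylases (HDAC1 and HDAC2), a methyl-CpG-binding-domain subunit (MBD3 or MBD2) and histone-binding WD40 subunits (RBBP4 and RBBP7). It is known for lowering or fine-tuning transcription at enhancers and promoters of active genes during differentiation, and it has no sequence-specific subunit, so transcription factors bring it to DNA. HDAC1, HDAC2, RBBP4 and RBBP7 also belong to other complexes, among them SIN3, and RBBP4 and RBBP7 to Polycomb repressive complex 2 as well. The ganglionic eminences give rise to the inhibitory (GABAergic) neurons of the forebrain, from ventricular zone progenitors that are kept dividing by Notch signalling. Because whole tissue was used, binding in few cells and weaker binding in many cells cannot be told apart.

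Promoter sequences of 8 genes with such a region show what lay under the peaks. The 250 bases before the annotated start are printed 5′ to 3′ on the gene's strand, from RefSeq (GRCm38.p6), with every CpG dinucleotide in capitals. The first 4 rank among the first 20 of the 624 regions by their worst rank over the lists, and none of their highest summits lay within the printed bases. In the other 4 the highest summits of at least 5 lists lay within the printed bases. All 8 stretches were overlapped by peaks of all 6 lists.
Cnot9: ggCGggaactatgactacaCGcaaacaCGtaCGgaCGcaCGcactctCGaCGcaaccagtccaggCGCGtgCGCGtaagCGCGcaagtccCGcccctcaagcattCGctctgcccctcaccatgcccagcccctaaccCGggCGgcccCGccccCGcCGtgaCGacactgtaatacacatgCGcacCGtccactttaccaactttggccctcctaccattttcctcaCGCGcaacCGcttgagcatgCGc
Rfx4: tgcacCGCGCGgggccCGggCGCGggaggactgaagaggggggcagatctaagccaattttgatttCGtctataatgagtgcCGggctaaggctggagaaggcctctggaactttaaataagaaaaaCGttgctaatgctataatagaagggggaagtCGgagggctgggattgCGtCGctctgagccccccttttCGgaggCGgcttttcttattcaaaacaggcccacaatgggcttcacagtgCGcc
Hes6: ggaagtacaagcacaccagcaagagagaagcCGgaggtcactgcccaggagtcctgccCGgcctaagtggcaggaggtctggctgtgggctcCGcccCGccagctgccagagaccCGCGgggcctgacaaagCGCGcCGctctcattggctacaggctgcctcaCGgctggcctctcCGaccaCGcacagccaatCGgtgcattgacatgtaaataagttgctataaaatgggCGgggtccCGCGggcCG
Zswim6: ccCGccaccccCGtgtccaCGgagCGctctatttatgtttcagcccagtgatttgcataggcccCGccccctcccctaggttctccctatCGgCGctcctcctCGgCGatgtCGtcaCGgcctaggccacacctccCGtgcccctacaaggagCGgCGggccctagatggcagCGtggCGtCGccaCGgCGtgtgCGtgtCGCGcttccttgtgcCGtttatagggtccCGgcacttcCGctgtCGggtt
Zfp128: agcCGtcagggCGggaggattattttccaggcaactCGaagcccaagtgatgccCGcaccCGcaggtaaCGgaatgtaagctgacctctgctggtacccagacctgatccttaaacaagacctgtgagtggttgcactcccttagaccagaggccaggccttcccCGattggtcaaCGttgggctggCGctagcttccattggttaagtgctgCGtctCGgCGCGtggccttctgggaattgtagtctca
Ctbp1: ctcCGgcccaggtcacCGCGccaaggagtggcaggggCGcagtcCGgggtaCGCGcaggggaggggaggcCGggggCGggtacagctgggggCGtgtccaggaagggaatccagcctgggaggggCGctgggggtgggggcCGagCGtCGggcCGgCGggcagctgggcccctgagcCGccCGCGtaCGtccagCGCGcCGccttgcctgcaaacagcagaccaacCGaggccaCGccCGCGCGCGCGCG
Rcor3: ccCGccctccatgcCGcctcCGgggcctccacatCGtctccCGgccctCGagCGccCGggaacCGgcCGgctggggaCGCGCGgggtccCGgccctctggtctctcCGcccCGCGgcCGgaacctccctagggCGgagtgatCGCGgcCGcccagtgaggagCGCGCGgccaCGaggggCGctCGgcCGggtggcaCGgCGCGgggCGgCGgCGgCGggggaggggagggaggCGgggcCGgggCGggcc
Fabp7: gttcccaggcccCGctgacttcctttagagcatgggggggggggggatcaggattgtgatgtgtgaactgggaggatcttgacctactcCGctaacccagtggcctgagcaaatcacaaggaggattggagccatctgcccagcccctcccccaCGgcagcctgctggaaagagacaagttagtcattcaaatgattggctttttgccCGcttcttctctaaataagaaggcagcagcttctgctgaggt

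The printed stretches lay at chr1:74505810-74506059 (Cnot9), chr10:84755798-84756047 (Rfx4), chr1:91413223-91413472 (Hes6, minus strand), chr13:107890065-107890314 (Zswim6, minus strand), chr7:12880928-12881177 (Zfp128), chr5:33275005-33275254 (Ctbp1, minus strand), chr1:192138041-192138290 (Rcor3, minus strand) and chr10:57784673-57784922 (Fabp7). Their CpG content spanned a wide range. Rcor3 held 39 CpG in 250 bases at a GC content of 82.8%, Ctbp1 31 at 77.6%, Cnot9 28 at 63.6% and Zswim6 26 at 66.0%. Hes6 held 17 (GC 64.0%), Rfx4 15 (54.8%), Zfp128 13 (56.8%) and Fabp7 4 (54.8%). All 6 lists thus met over promoters with many CpG and over a promoter with few.

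At 3 of these promoters the summits lay close together. At Zfp128, a zinc finger gene, the highest summit of each list lay upstream of the start by 171 bp (CHD4-labelled), 90 bp (HDAC1-labelled), 189 bp (HDAC2-labelled), 173 bp (MBD3), 55 bp (RBBP4) and 136 bp (RBBP7). At Ctbp1, a corepressor that binds short peptide motifs of transcription factors, the 6 summits lay between 188 bp (RBBP7) and 271 bp (HDAC2-labelled) upstream. At Cnot9, a subunit of the CCR4-NOT deadenylase, all 6 lay downstream, between 125 bp (HDAC2-labelled) and 220 bp (CHD4-labelled) past the start. Rcor3, a scaffold of the CoREST corepressor, had 5 summits between 45 and 133 bp upstream and the CHD4-labelled summit 445 bp downstream. Fabp7, a fatty-acid-binding protein of radial glia, had 5 summits between 16 and 197 bp upstream and the CHD4-labelled summit 80 bp downstream.

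The regions were ordered by their worst rank in any list, counted from the highest peak, so the shortest list, HDAC2-labelled, could give no rank past 5517. In 6 of the first 20 regions the HDAC2-labelled peak lay below the middle of its own list, at percentiles of 40.5 (Map3k14) to 49.8 (Btf3l4 with Txndc12). The heights that follow are the authors' fold enrichments over input at the highest summit of each list, in the order CHD4-labelled, HDAC1-labelled, HDAC2-labelled, MBD3, RBBP4 and RBBP7. First stood the start shared by Tacc3, a spindle microtubule protein, and Tmem129, an endoplasmic reticulum ubiquitin ligase (chr5:33657263-33659611), with 13.7, 10.7, 5.8, 10.2, 14.4 and 15.1. Its 6 summits lay within 75 bp. Cnot9 followed (chr1:74504976-74506903), with 17.4, 12.45, 5.05, 8.2, 13.3 and 12.9 and summits within 95 bp. In both regions the HDAC2-labelled peak was the lowest by fold and had the worst rank in its own list. That list had the lowest fold in 438 of the 624 regions, and each list rests on its own library, so a fold is best read against other regions of the same list.

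Rfx4, a winged-helix factor of the developing brain, had the highest MBD3 peak of all 624 regions (chr10:84754402-84758433), with enrichments of 10.4, 9.38, 8.01, 37.4, 15.9 and 18.7. Fbxl19, whose CXXC domain binds unmethylated CpG (chr7:127744545-127747444), had 12.99, 15.96, 4.88, 12.49, 15.1 and 11.5, with all summits within 52 bp. Nr2f1, a nuclear receptor of caudal ganglionic eminence and cortex (chr13:78193233-78201743), had 9.85, 6.46, 5.16, 7.92, 10.4 and 10.2. Among these 3 regions the spread between lists was widest at Rfx4, where MBD3 stood apart from the other 5.

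A ligand gene and 2 transcription factor genes were also among the first 20 regions. Efnb2, a transmembrane ephrin ligand of Eph receptors (chr8:8653628-8662210), had 10.3, 7.21, 4.57, 7.06, 10.5 and 14.02. Sox21, a SOXB2 factor that counteracts progenitor SOXB1 proteins (chr14:118229307-118238614), had 12.2, 7.69, 4.57, 7.85, 17.3 and 20.6, the highest RBBP7 enrichment of the 624. Its highest summits lay away from the start, 2532 bp downstream for CHD4-labelled and 6592 to 6686 bp downstream for the other lists. Hes6, a HES-family protein that inhibits HES1 (chr1:91412343-91414815), had 8.91, 10.8, 5.36, 11.8, 13.6 and 11.6. RBBP4 and RBBP7 gave the highest of the 6 values at Sox21, whereas at Hes6 5 lists lay between 8.91 and 13.6.

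The other members of the top 20 were a mix of chromatin, cell-cycle and general genes. Chromatin and DNA-binding proteins among them were Jarid2, a partner of Polycomb repressive complex 2, Ing2, a histone-mark reader of the SIN3 deacetylase complex, Pou2f1 and Bbx. Pou2f1 had the highest CHD4-labelled enrichment of the 624 at 22.9, while its HDAC2-labelled peak reached 4.18, and no base of the region was covered by all 6 lists. Mitotic genes were Bora and Mzt1, which share a region, and Foxm1, an activator of mitotic genes, which shares one with Rhno1. Bbx, an HMG-box protein, had an MBD3 enrichment of 21.8 and a HDAC2-labelled one of 4.05. The remaining regions of the 20 were those of Rhcg, Stt3b, Btf3l4 with Txndc12, Zswim6, Map3k14 and Sox12.

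By percentile within its own list, the HDAC2-labelled or the RBBP7 peak was most often the weakest of the 6. These lists held the lowest percentile in 226 and 241 of the 624 regions, against 66 for HDAC1-labelled, 43 for MBD3, 41 for CHD4-labelled and 7 for RBBP4. RBBP4 held the highest in 211 and MBD3 in 165. Over all 624 regions the median enrichment was 7.42 (quartiles 5.98 and 9.53) in the CHD4-labelled list, 5.88 (5.06 and 7.04) in the HDAC1-labelled list and 4.09 (3.56 and 4.76) in the HDAC2-labelled list. It was 6.09 (4.83 and 7.85) for MBD3, 7.0 (5.79 and 8.8) for RBBP4 and 5.81 (5.07 and 6.97) for RBBP7.

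Set against all peaks of the same list, the gene-end peaks were high in 4 lists and near or below the middle in 2. A percentile of 100 marks the highest peak of a list. The median percentile was 85.8 for RBBP4, 82.5 for MBD3, 74.5 for CHD4-labelled and 74.2 for HDAC1-labelled, but 44.6 for HDAC2-labelled and 38.7 for RBBP7. The 903 other regions of all 6 lists had medians of 93.6, 79.5, 63.1 and 69.0 in the same first 4 lists, 60.8 for HDAC2-labelled and 76.6 for RBBP7. The RBBP7 enrichment thus differed most between both kinds of region, at a median of 5.81 at gene ends and 7.78 elsewhere, and its quartiles overlapped (5.07 to 6.97 against 6.1 to 10.8).

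**Figure D1:**
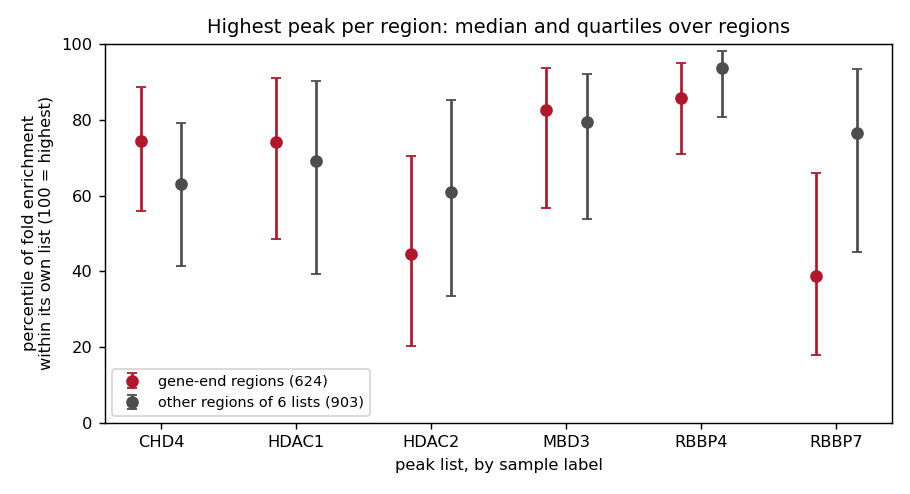
Percentile of the highest peak of each list within its own list (vertical axis, 100 is the highest peak of the list) for the 624 gene-end regions of all 6 lists and the 903 other regions of all 6 lists. Points are medians and bars run from the first to the third quartile over regions. RBBP7 has the widest gap, with medians of 38.7 and 76.6, and the CHD4-labelled list is higher at gene ends, with 74.5 and 63.1.

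The significance that the authors' peak caller gave to these peaks also differed between lists. A −log10 q of 10 or more was reached by the highest peak in 616 of the 624 regions (98.7%) for RBBP4, in 550 (88.1%) for CHD4-labelled and in 533 (85.4%) for MBD3. It was reached in 325 (52.1%) for HDAC1-labelled, 231 (37.0%) for RBBP7 and 169 (27.1%) for HDAC2-labelled. When peaks under a −log10 q of 10 were left out of all lists, 56 gene-end regions of all 6 lists remained. When the HDAC2-labelled list was not required, 1352 gene-end regions held the other 5, and without RBBP7 there were 1091.

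Peak heights of different subunits were only loosely related across the 624 regions. Spearman's rho between lists ran from 0.07 (HDAC1-labelled and HDAC2-labelled) to 0.53 (RBBP4 and RBBP7), with a median of 0.2 over the 15 pairs. RBBP4 and RBBP7 share an input. CHD4-labelled and HDAC1-labelled, which share an input by the peak names, gave 0.35, and 0.54 in the 903 other regions. In the 903 other regions the median was 0.26. The HDAC2-labelled and MBD3 lists, also a pair by the peak names, gave 0.5 there, against 0.2 at gene ends. All of these are over regions of the same 6 libraries, so they describe those libraries and carry no test.

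The peaks lay at the starts of genes. Strand was known from the RefSeq promoter table for the genes of 476 regions, and 468 of these (98.3%) lay within 1000 bp of a start, while 8 lay only at a 3′ end. The rule took either end alike. Among gene-end regions of 1 list 91.0% lay at a start, and among those of 5 lists 98.8%. An annotated gene end lay inside the region in 536 of 624 (85.9%), against 64.3% of gene-end regions of 1 to 5 lists, which were narrower (median 930 bp against 1910 bp). In gene-end regions of 5 lists that share was 86.2%, much as in the 624, and in those of 1 list it was 38.8%. The 8 regions at 3′ ends were those of Rhcg, Fezf2, Tox3, Sox12, Krt10, Tmem107, Ccn1 and Rwdd3. For 148 regions the strand was not in the table.

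Around the starts the lists differed in where the summit fell. The highest CHD4-labelled summit had a median position 198 bp downstream of the start (quartiles 126 bp upstream and 414 bp downstream) and lay downstream in 332 of 468 regions (70.9%). HDAC1-labelled summits had a median 54 bp downstream and lay downstream in 55.1%. The remaining 4 lists had medians just upstream, by 12 bp for MBD3, 38 bp for RBBP4, 44 bp for HDAC2-labelled and 52 bp for RBBP7, and lay downstream in 42.9% (RBBP7) to 47.9% (MBD3). The share of summits within 500 bp of the start used was highest for RBBP4 and MBD3, at 78.8% and 78.6%. It was lowest for CHD4-labelled, at 66.7%.

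**Figure D2:**
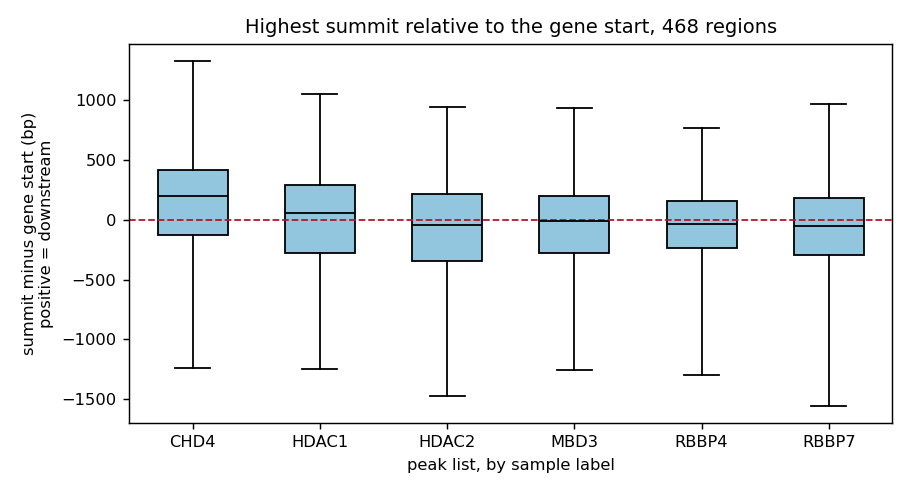
Distance of the highest summit of each list from a gene start in the RefSeq promoter table (vertical axis, bp, positive is downstream). All 468 regions at a start of known strand are included, and the start used lay inside the region in 430 of them. Boxes show the median and quartiles and whiskers the 5th and 95th percentiles over regions. The CHD4-labelled box sits highest, with a median of 198 bp, and the other medians lie between 52 bp upstream and 54 bp downstream.

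Gene-end regions were broad, and the 6 lists often met there only through chained peaks. Their width had a median of 1910 bp (quartiles 1382 and 2691, range 484 to 16323), and 38 (6.09%) were 5000 bp or wider, against 12 of the 903 other regions (1.33%). A base covered by all 6 lists at once existed in 475 of 624 (76.1%), against 809 of 903 (89.6%). The 6 highest summits lay within 250 bp of their median in 178 (28.5%), against 534 (59.1%) elsewhere. The range from the first to the last summit had a median of 658 bp at gene ends (quartiles 336 and 1160) and 303 bp elsewhere (172 and 604). The name of a region bound by all 6 subunits therefore covers 149 regions in which no base was shared by all lists.

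The widest region was that of Pou3f2, a POU-domain factor of neural progenitors, at chr4:22477129-22493451, with 16323 bp and 28 peaks. CHD4-labelled peaks covered 91.0% of it, RBBP4 peaks 43.6% and HDAC1-labelled peaks 36.7%, whereas MBD3 covered 15.5%, HDAC2-labelled 9.96% and RBBP7 8.44%. All 6 lists met over 11 bp, and the summits spanned 11185 bp. Mn1, a transcriptional coregulator, was next with 12204 bp (chr5:111414930-111427133), and a lone CHD4-labelled peak spanned all of it. Sall1, a zinc finger repressor whose amino-terminal motif binds NuRD, had 10410 bp (chr8:89036544-89046953), 83.3% of it under CHD4-labelled and 58.6% under RBBP4 peaks.

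Sox21 and Mllt10, a cofactor of the DOT1L histone methyltransferase, completed the 5 widest regions with 9308 and 9283 bp. A CHD4-labelled peak covered all of the Sox21 region, and CHD4-labelled peaks covered 99.4% of the Mllt10 region, where no other list covered more than 20.7%. The regions with most peaks after Pou3f2 were those of Myc (23 peaks in 5453 bp), Efnb2 (21), Meis1 (20) and Pcdh17 (20). At Myc the CHD4-labelled, RBBP4 and HDAC1-labelled lists covered 82.5%, 78.8% and 71.2% of the region. In all 9 of these regions the HDAC2-labelled list covered between 3.32% and 21.3%.

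The 624 regions lay at 691 of 20953 curated protein-coding genes, which is 3.3% of all and 5.75% of the 12011 genes with a peak of any list at an end. These shares are the background for the gene lists that follow. The member genes were long, with a median length of 34702 bp against 24666 bp for genes with any peak at an end and 17821 bp for all. No gene list was tested.

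Corepressor genes had the largest share among the 37 lists. Of 23 corepressor genes outside NuRD and Polycomb, 8 had such a region (34.8%), among them Ctbp1, Hdac3, Tbl1xr1, Rcor2, Rcor3, Tle3 and Tle4. Hdac3 and Tbl1xr1 encode parts of a nuclear receptor corepressor complex, Rcor2 and Rcor3 CoREST scaffolds, and Tle3 and Tle4 Groucho-type corepressors. At Rcor3 the enrichments were 9.65, 8.12, 5.09, 9.77, 14.2 and 6.01, in the same order of lists. NuRD's own genes had 3 of 15 (20%), at Hdac2 (9.15, 5.71, 3.18, 6.7, 5.86 and 6.35), Mbd2 (13.3, 10.4, 3.49, 8.0, 7.75 and 8.26) and Mbd3 (9.5, 5.76, 3.76, 7.87, 9.33 and 6.87). BAF remodeller genes had 3 of 24 (Arid2, Dpf1 and Ss18) and Polycomb genes 1 of 24 (4.17%; Jarid2).

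Notch pathway genes had 6 of 23 (26.1%), which covered ligands, a receptor and effectors. The ligand genes were Dll1 (9.74, 6.05, 3.85, 6.22, 8.0 and 6.1) and Jag1 (11.3, 9.24, 3.6, 8.18, 7.24 and 4.85), and the receptor was Notch1 (10.9, 5.32, 4.82, 5.65, 6.61 and 6.6). The effectors were Hes1 and Hes5, bHLH repressors that Notch induces to hold progenitors back from differentiation. The list also held Hes6, whose protein inhibits HES1. Hes1 had 9.46, 8.68, 3.49, 5.76, 7.21 and 7.3, and Hes5 had 7.35, 7.27, 4.13, 7.99, 8.23 and 6.47. The Hes5 region also held the start of Pank4, and its 6 highest summits spanned 3572 bp. In every list but RBBP7 the highest summit lay 75 to 202 bp downstream of the Pank4 start. The RBBP7 summit lay upstream of that start. Apart from RBBP7, the values given for Hes5 are thus heights of peaks at the Pank4 start. Across the 6 genes the HDAC2-labelled value was the lowest of the 6 lists throughout, between 3.49 and 5.36.

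Of 28 ventricular zone progenitor genes 7 (25%) had a region, among them Fabp7, Hes1, Hes5, Hmga2, Notch1 and Vax1. The bHLH factors as a list had 8 of 34 (23.5%), among them Bhlhe40, Myc, Neurod1 and Tcf3 beside the Hes genes. Genes of the GABAergic lineage had 7 of 48 (14.6%): Bcl11b, Dlx1, Foxp2, Meis1, Nr2f1, Sox11 and Tshz1. Sox11, a SOXC factor of newborn neurons, had 13.4, 12.3, 4.27, 16.0, 7.28 and 6.12. Cortical glutamatergic genes, which mark another lineage, had 4 of 21 (19%), namely Cux1, Fezf2, Neurod1 and Reln. The shares of both neuronal lists lay above the background of 3.3%, and their difference from each other was not tested.

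Migration and axon guidance genes had 11 of 48 (22.9%). Ephrins and Eph receptors, which signal between touching cells, made up 5 of them, Efna5, Efnb2, Epha4, Epha7 and Ephb1. Netrin receptors were Unc5c and Unc5d, the semaphorins were Sema3f and Sema5a, and the semaphorin coreceptor Nrp1 and the adhesion molecule Ncam1 completed the list. Epha4 had 12.04, 9.58, 4.93, 10.6, 7.1 and 5.17, and Ncam1 had 6.14, 7.56, 5.13, 14.96, 11.4 and 10.2. MBD3 gave the highest value of the 6 at Ncam1, Ephb1 (12.8), Efna5 (9.86), Sema5a (8.99) and Nrp1 (7.8). At the other genes of the list another peak list did.

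Immediate early and stress genes, which neural and other cells induce within minutes to hours of a stimulus, had 8 of 35 (22.9%): Ddit4, Egr1, Fosl2, Ier2, Jun, Jund, Klf10 and Nr4a3. Egr1 had 7.37, 7.45, 5.17, 7.88, 8.55 and 8.03, a spread of 5.17 to 8.55. KLF and SP factors had 5 of 29 (17.2%), Sox factors 3 of 19 (15.8%; Sox11, Sox12 and Sox21), and forkhead factors 3 of 44 (6.82%). BMP, TGF-beta and activin pathway genes had 5 of 34 (14.7%), of which Chrd and Nog are secreted BMP antagonists and Smad7 and Skil intracellular inhibitors, while Tgfbr1 is a receptor. Wnt pathway genes had 4 of 33 (12.1%; Apc, Fzd2, Gsk3b and Nkd1) and FGF pathway genes 1 of 23 (4.35%; Fgfr2). Cell cycle genes had 3 of 32 (9.38%; Ccne1, Gadd45a and Gadd45g).

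Other groups had peaks at most of their genes and regions of all 6 lists at shares no higher than the background of 3.3% of all genes. The share of SR and hnRNP proteins was close to that background, and the counts in all of these groups were small. Of 39 Hox genes 38 had a peak of some list at an end and 0 had all 6. All 15 Hedgehog pathway genes had a peak and 0 had all 6. Cytosolic ribosomal protein genes had a peak at 72 of 80 and all 6 at 1 (1.25%), Rps29. Translation initiation factors had 1 of 55 (1.82%; Eif5b), mitochondrial ribosomal proteins 2 of 78 (2.56%), and SR and hnRNP proteins 1 of 31 (3.23%; Hnrnpu). The Hnrnpu region lay at the 3′ end of that gene and at the start of Cox20. Housekeeping genes had a peak at 12 of 14 and all 6 at 0. In lists of 14 or 15 genes, 3.3% comes to less than 1 gene.

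Lists of vascular, microglial and glial markers had no region of all 6 lists, and at 3.3% lists this short would hold less than 1 such gene. Endothelial and mural genes had 0 of 15 with all 6 lists and 6 with any peak, microglial genes 0 of 10 and 2, and oligodendrocyte and astrocyte genes 0 of 13 and 6. Cholinergic genes had 1 of 10, Ache, which breaks down acetylcholine. Olfactory receptors had 0 of 1104, with a peak of any list at 2. Clustered protocadherins had 0 of 57 and replication-dependent histones 0 of 62, with a peak at 22 and 33. Large families near the background were the solute carriers (11 of 346, 3.18%) and the genes named Zfp (18 of 395, 4.56%).

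**Figure D3:**
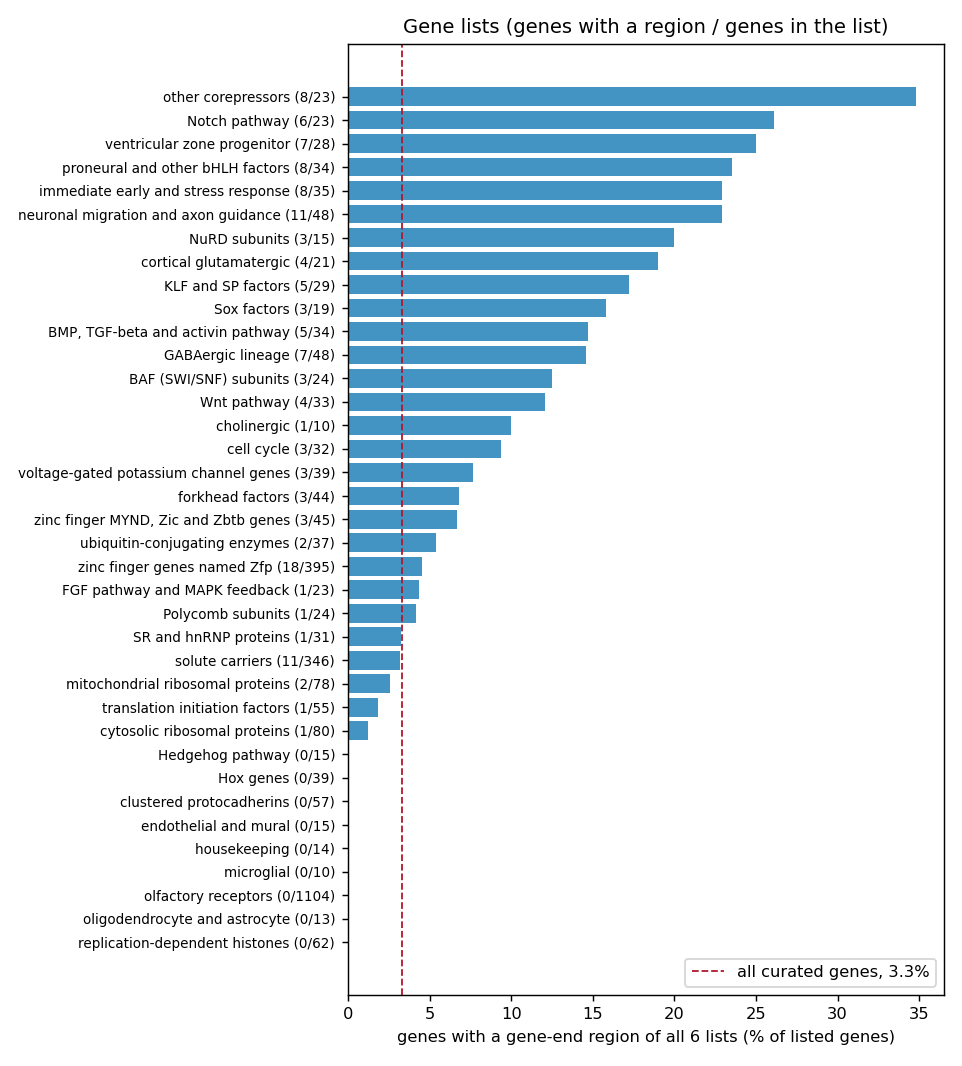
Share of the genes of each list that had a gene-end region of all 6 lists (horizontal axis, percent of listed genes), with the number of genes beside each name. The dashed line marks 3.3%, the share of all 20953 curated genes. Corepressors (34.8%), Notch pathway (26.1%) and ventricular zone progenitor genes (25%) are longest, and 9 lists stand at 0.

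A few genes had separate regions of all 6 lists. Sox12 and Rwdd3 each had a region at the start and another at the 3′ end, and so did Prkaca, whose 3′ region also lay at an end of Samd1. At Sox12 the start region (chr2:152395508-152399402) had 9.49, 7.18, 4.19, 9.87, 7.69 and 7.98, and the 3′ region (chr2:152392915-152393599) had 6.29, 5.4, 6.33, 11.9, 10.2 and 13.8. The CHD4-labelled and HDAC1-labelled enrichments were thus higher at the start, and the other 4 higher at the 3′ end. Samd1 and Enc1 also had 2 regions, with strand not in the table, and Zswim6 had 2 near its start.

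The promoters in these regions were rich in CpG, as were those with fewer subunits. RefSeq windows of 300 bases, from 250 before to 50 after a start, were used, and 548 of them overlapped a region of all 6 lists. These held a median of 27 CpG (quartiles 20 and 35) at a GC content of 67.0%, and their observed-to-expected CpG ratio was 0.829. Windows in gene-end regions of 1 to 5 lists held 23 CpG (17 and 31) at 63.0% and a ratio of 0.803. Windows with no peak held 4 (2 and 8) at 49.3% and 0.228. At least 10 CpG were found in 96.4%, 93.4% and 19.1% of these 3 sets, so the step lay between promoters with and without a peak more than between those with 6 and fewer lists.

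**Figure D4:**
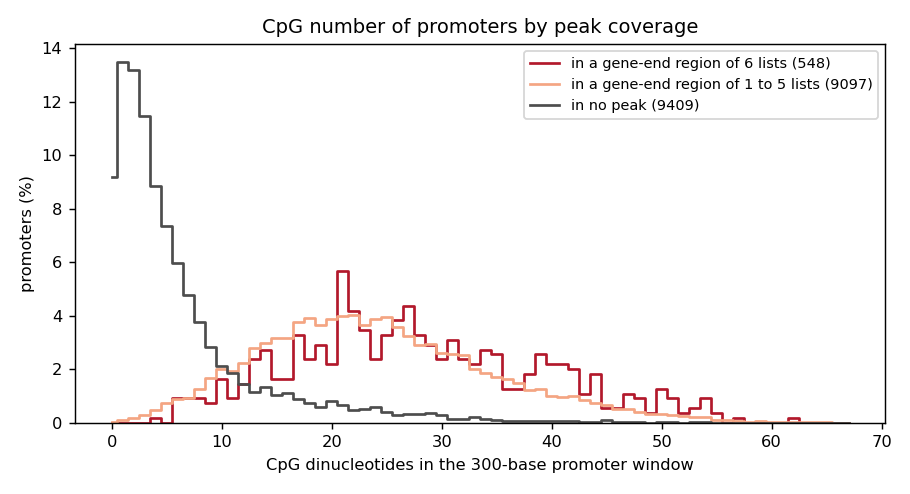
Distribution of the number of CpG dinucleotides in 300-base promoter windows (horizontal axis) as percent of the promoters of each set (vertical axis), for 548 windows in gene-end regions of all 6 lists, 9097 in gene-end regions of 1 to 5 lists and 9409 with no peak. The first 2 curves overlap over most of their range, with medians of 27 and 23, and the third peaks at low numbers, with a median of 4.

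Short motifs were counted in the same windows on both strands, with matches to different motifs allowed to overlap. The GC box GGGCGG occurred in 77.7% of windows in regions of all 6 lists, 71.2% of those in gene-end regions of 1 to 5 lists, 20.8% of those with no peak and 47.7% of all 20393. The ETS motif CCGGAAG was found in 74 of the 548 windows with 6 lists, 19.9% of those with 1 to 5 and 4.26% of those with no peak (11.9% of all), the CREB motif TGACGTCA in 1.82%, 3.59% and 1.11% (2.31%) and the RBPJ motif TTCCCAC in 3.65%, 5.95% and 6.34% (6.16%). The NRF1 core GCGCATGC was found in 5.11%, 5.87% and 1.34% (3.64%) and the YY1 core AAGATGGC in 3.28%, 4.79% and 1.48% (3.1%). The differences between windows with 6 and with 1 to 5 lists were not tested, and for the NRF1 and YY1 cores they rest on 28 and 18 windows with 6 lists.

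TATAAA occurred in 5.47% of windows with 6 lists, 5.58% with 1 to 5 and 20.3% with none (12.4% of all), and CCAAT in 37.2%, 38.6% and 38.8% (38.4%). The E-box CANNTG, the core that bHLH factors bind, was present in 57.7%, 60.5% and 77.9% (68.7%), and its CAGCTG form in 15.1%, 13.9% and 17.7% (15.8%). The homeodomain core TAATTA, the type of core that DLX proteins bind, was present in 1.09%, 2.01% and 7.22% (4.45%), that is in 6 of the 548 windows. Median GC content also differed between the sets, at 67.0%, 63.0% and 49.3%. Whether the motif shares followed it was not tested. Of the printed promoters, Cnot9 held a GC box, an E-box and the NRF1 core, Hes6 held a CCAAT box, a GC box, the TATA motif and the last E-box form, and Rcor3 held a GC box alone of the motifs counted.

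The regions were spread over all autosomes. Chromosomes 8, 10 and 2 had most, with 55, 50 and 46, and per gene the share ran from 1.77% on chromosome 7 to 5.96% on chromosome 18. Chromosome X had 0 of its 351 gene-end regions in all 6 lists, which allows a share of up to 0.855% (3 counts), although 905 curated genes lie there. Peaks on X made up 0.62% (HDAC1-labelled) to 2.0% (CHD4-labelled) of a list.

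Few of these regions overlapped a region listed as more or less accessible in Dlx1/2KO. The lists hold only areas of at least 500, so a region that overlapped none of them need not be unchanged. The question was whether places where all 6 lists met at gene ends overlapped regions more or less open in Dlx1/2KO. Of the 624, 3 overlapped a region more accessible in Dlx1/2KO FTneg cells (0.481%, 95% Wilson interval 0.164 to 1.4), against 99 of the 903 other regions of all 6 lists (11.0%, 9.09 to 13.2) and 1.33% of all merged regions. The odds ratio was 0.0392 (two-sided Fisher's exact test, p = 4.8e-20, adjusted p = 3.84e-19 over 8 tests). With peaks limited to a −log10 q of 10 or more, the counts were 2 of 56 and 26 of 163, and the odds ratio of 0.195 did not pass (Fisher's exact test, adjusted p = 0.0746). Without that limit, regions of 1 to 5 lists also overlapped less often at gene ends (23 of 12454, 0.185%) than elsewhere (392 of 24839, 1.58%). The lower share at gene ends was thus not particular to regions of all 6 lists, and the difference among regions of fewer lists was not tested.

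Against gene-end regions of fewer lists the overlap was not found to differ. Of 12454 gene-end regions of 1 to 5 lists, 23 overlapped a region more accessible in Dlx1/2KO FTneg cells (0.185%, 0.123 to 0.277; odds ratio 2.61, Fisher's exact p = 0.125, adjusted p = 0.434). With a −log10 q of 10 or more the counts were 2 of 56 and 19 of 10323, with an odds ratio of 20.1 and an adjusted p of 0.045 in the same exact test, so this comparison depended on the peak threshold and rested on 2 regions. With every region replaced by 500 bp either side of its midpoint, which sets all widths equal, the odds ratio was 1.74 against gene-end regions of 1 to 5 lists (exact test, adjusted p = 0.654) and 0.0267 against the other regions of all 6 lists (exact test, adjusted p = 7.15e-20). Intervals and tests treat regions as independent and cover counting error only.

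**Figure D5:**
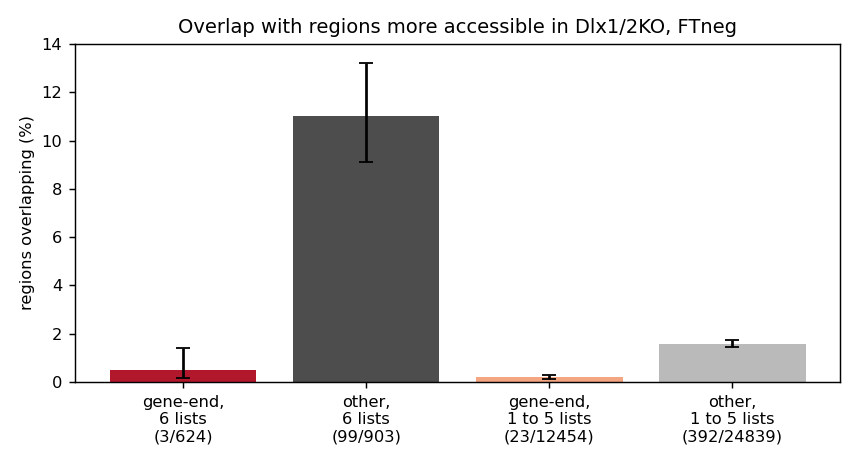
Share of merged ChIP regions that overlapped a region more accessible in Dlx1/2KO than in WT FTneg cells (vertical axis, percent), in 4 classes of region with the counts under each bar. Error bars are 95% Wilson intervals. Gene-end regions of all 6 lists stand at 0.481% and the other regions of all 6 lists at 11.0%. With 1 to 5 lists, gene-end regions stand at 0.185% and other regions at 1.58%.

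The 3 gene-end regions that overlapped a region more accessible in Dlx1/2KO FTneg cells were those of Sox21, Zswim6 and Ccn1. The Sox21 region held 2 such accessibility regions, with areas of 1949 and 666.4, where the area is the authors' Genrich score of the difference. The first, of 1636 bp, was overlapped by peaks of all 6 lists and the second, of 819 bp, by CHD4-labelled, RBBP4 and RBBP7 peaks. Both lay downstream of the Sox21 start, as did the highest summits of the region. At Zswim6 (chr13:107889662-107892223) an accessibility region of 639 bp and area 542.1 lay under peaks of all 6 lists, with enrichments of 9.1, 8.85, 4.19, 8.76, 14.8 and 11.7. It held 215 of the 250 printed bases of the Zswim6 promoter. At Ccn1, a secreted matricellular protein (chr3:145645683-145646476), an area of 833.8 was found at the 3′ end, with enrichments of 8.33, 5.3, 4.58, 6.06, 7.1 and 4.94. Area values close to the deposited minimum of 500 leave Zswim6 as the smallest of these differences.

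In the opposite direction the region of Dlx1 alone overlapped regions listed as less accessible in Dlx1/2KO. It overlapped a region more accessible in WT FTneg cells (area 7825) and in WT FTpos cells (area 6293), against 0.0927% and 0.0696% of all merged regions. Dlx1 is itself a disrupted gene, and the extent of the Dlx1/2KO allele is not given in the sources used here. Loss of the sequence and loss of its accessibility therefore cannot be told apart at this region. Its ChIP enrichments (chr2:71527793-71533716) were 10.9, 6.16, 2.92, 4.52, 7.04 and 7.09, and CHD4-labelled, RBBP4 and RBBP7 peaks overlapped the accessibility regions. Against the other regions of all 6 lists these counts of 1 compared with 0 (FTneg, adjusted p = 0.654) and 2 (FTpos, adjusted p = 1) in Fisher's exact tests. Against gene-end regions of 1 to 5 lists they compared with 4 and 3 of 12454 (adjusted p = 0.434 each, same exact test). No gene-end region of all 6 lists overlapped a region more accessible in Dlx1/2KO FTpos cells, 0 of 624 (95% Wilson upper limit 0.612%; a limit of 3 counts is 0.481%), and 0.00258% of all merged regions did.

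Peak heights varied among the regions nearest to either side of the distance limit of 1000 bp. Just inside it lay Samd1 at 852 bp, Ppm1h at 956 bp and Gtf2ird2 at 972 bp from the region, and just outside it Snx10 at 1002 bp, Klf15 at 1015 bp and Gtpbp2 at 1033 bp. Gtf2ird2 had 13.2, 6.71, 3.39, 6.71, 5.22 and 5.72. Klf15, outside, had 8.02, 10.4, 3.55, 16.5, 6.89 and 6.58. The HDAC2-labelled value was the lowest of the 6 in each of these regions except that of Snx10, where the CHD4-labelled value was 3.65 and the HDAC2-labelled one 4.14.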

How the data were processed

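Of 21 samples, the 9 ChIP-seq libraries (6 subunits, 3 inputs) and 12 ATAC-seq libraries were used through the authors' deposited lists. Per the submitters' processing notes, the build was mm10 and the tools were deepTools, Genrich, BWA, MACS2 2.2.7.1 and SAMtools 1.10. Their settings are not given in the sources used here. The deposited ChIP lists give, as the authors' values, the fold enrichment over input at each summit (a ratio) and its p-value and q-value as −log10. The deposited accessibility lists give an area score of at least 500 and combine 3 embryos per genotype and fraction, so embryos cannot be compared. No file used holds read counts, so depth is unknown.

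Peaks sharing 1 bp or more were merged, and regions of all 6 lists within 1000 bp of either end of a curated gene (RefSeq, GRCm38.p6, 20953 genes) were kept. The highest fold per list stood for a region. Strand came from the RefSeq promoter table (16783 of these genes; promoters of chromosome 18 were not used here). Overlap with accessibility regions (1 bp or more) was tested with two-sided Fisher's exact tests, Benjamini-Hochberg adjusted over 8 tests; where a cell was empty, 0.5 was added to all cells before the odds ratio was taken, and the threshold was 0.05. Wilson intervals are 95%. Merging, distance, overlap and adjustment code was tested on simulated intervals. Python 3.11.15, pandas 2.3.3 and SciPy 1.17.1 were used.

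Named genes followed a rule: the 20 regions with the best worst rank, regions overlapping an accessibility region, members of the gene lists (up to 6 of lists defined by a name pattern), the 5 widest and the 5 with most peaks, the 3 nearest on each side of the 1000 bp limit, and genes with 2 regions. Sequences were limited to 8 genes of these. The members and lists were chosen with earlier results of these data known. Alternatives varied the peak threshold, list length, definition of sharing, distance, gene set, lists required, area minimum and region width; leaving out the Dlx1 region was chosen after seeing the data. Values of some genes of the lists are not reported here.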

Additional observations from a re-analysis of the deposited data

How the results depend on the processing

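The number of gene-end regions of all 6 lists, 624, stayed between 437 and 695 under 9 of 14 alternatives. It fell to 56 with a −log10 q of at least 10, to 77 with every list cut to the 5517 peaks of the shortest, and to 178 when the 6 highest summits had to lie within 250 bp of their median. It rose to 1352 without the HDAC2-labelled list and to 1091 without RBBP7. Overlap with regions more accessible in Dlx1/2KO FTneg cells, against the other regions of all 6 lists, kept an odds ratio of 0.0502 or less, past the threshold, under 5 alternatives, and with a −log10 q of at least 10 it was 0.195 (Fisher's exact test, adjusted p = 0.0746). Against gene-end regions of 1 to 5 lists that setting gave 20.1 (Fisher's exact test, adjusted p = 0.045). In both, fewer regions were tested (56). Against the other regions of all 6 lists the odds ratio for WT-higher FTpos regions, 0.723, became 4.35 at an area of at least 1000 (adjusted p = 0.545, exact test), with counts of 1 and 0. The other 40 values kept their direction and side of the threshold, or for counts stayed within 1.5 times. No paired analysis was possible because the embryos that share a number are combined in each deposited accessibility list, and the ChIP-seq has 1 library per subunit. Peak calls without read counts limit what can be said of a list that lacks a peak.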

Other observations

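Gene-end regions that missed a single list were more numerous than those of all 6. Of 1324 gene-end regions of 5 lists, 728 (55%) lacked the HDAC2-labelled list and 468 (35.3%) RBBP7, while 73 lacked HDAC1-labelled, 28 CHD4-labelled, 27 MBD3 and 0 RBBP4. The share of merged regions at a gene end rose from 21.6% with 1 list to 35.1%, 49.8%, 55.5% and 55.4% with 2, 3, 4 and 5 lists, and was 40.9% with 6. The HDAC2-labelled list was the shortest, with 5517 peaks.

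Some regions of all 6 lists outside the gene-end set lay at starts inside genes. Of the 903 other regions, 68 (7.53%) lay within 1000 bp of an annotated internal start in the RefSeq promoter table, a start that the outer ends of the gene do not show. On chromosome X, 0 regions of all 6 lists lay at a gene end.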
